A study of Mus musculus with 2 samples.

Results

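The 9 genes described here encode proteins of the epithelial tight junction, the seal that joins neighboring epithelial cells near their apical surface. They were taken as a named list, with every probe set annotated to a single one of them, and they are 9 of 12393 genes read by the arrays. The 9 genes had 16 probe sets, each a group of short probes for a stretch of 1 transcript or of several transcripts of a gene. There were 6 genes with 1 probe set, whereas Cldn1 and Cldn3 had 4 each and F11r had 2. In the mouse build GRCm38.p6, Cldn3 and Cldn4 lie on chromosome 5, Cldn1 and Cldn8 on 16, Cldn7 on 11, Cldn10 on 14, Ocln on 13, F11r on 1 and Tjp1 on 7. Gene expression was measured in mammary tumors of female wild-type FVB mice on 2 Affymetrix mouse arrays, 1 for tumors from mice on chow with 0.1% GW9662 and 1 for tumors from mice on standard chow. GW9662 is an irreversible antagonist of PPARγ and was given from the day after the last dose of carcinogen. In both groups mammary carcinogenesis was induced from 5 weeks of age by an injection of 15 mg of the progestin medroxyprogesterone acetate and then 4 weekly doses of 1 mg of the carcinogen DMBA, and each array was hybridized with RNA pooled from 5 mice. Without replicate arrays the diets could not be tested against each other, so that differences are described by their size, and those between mice, tumors and arrays cannot be told apart.

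Claudins are a family of membrane proteins that span the membrane several times and join those of the next cell into strands. Some claudins tighten the seal and others form pores for selected ions, so that the set of claudins a cell makes shapes what may pass between cells. Occludin and JAM-A are further membrane proteins of the junction, and ZO-1 is the cytoplasmic scaffold that ties them to actin. In the mammary gland these junctions separate milk from the interstitial fluid, and breast tumors poor in several claudins form a recognized class.

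The upstream sequences of 3 claudin genes are shown because Cldn3 and Cldn4 are near neighbors whose signals differed little between the diets, whereas Cldn1 had the lowest ratio of the 9 genes. Each is the stretch of 250 bases before the annotated start in RefSeq, mouse build GRCm38.p6, written along the strand of the gene. Capitals mark CACCTG or its reverse complement CAGGTG, the element bound by Snail and Zeb factors, which repress epithelial genes. The Cldn4 stretch lies at chr5:134946935-134947184 on the minus strand, that of Cldn3 at chr5:134985964-134986213 on the plus strand, and that of Cldn1 at chr16:26371840-26372089 on the minus strand.
Cldn4: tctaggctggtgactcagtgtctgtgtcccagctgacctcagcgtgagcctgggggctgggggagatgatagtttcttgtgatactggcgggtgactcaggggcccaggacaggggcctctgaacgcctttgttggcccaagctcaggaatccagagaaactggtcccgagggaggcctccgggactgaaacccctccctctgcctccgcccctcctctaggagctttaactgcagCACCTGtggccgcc
Cldn3: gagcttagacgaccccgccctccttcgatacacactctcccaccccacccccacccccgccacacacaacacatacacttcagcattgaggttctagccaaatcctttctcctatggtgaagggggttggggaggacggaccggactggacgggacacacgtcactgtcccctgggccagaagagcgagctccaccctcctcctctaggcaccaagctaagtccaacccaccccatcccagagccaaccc
Cldn1: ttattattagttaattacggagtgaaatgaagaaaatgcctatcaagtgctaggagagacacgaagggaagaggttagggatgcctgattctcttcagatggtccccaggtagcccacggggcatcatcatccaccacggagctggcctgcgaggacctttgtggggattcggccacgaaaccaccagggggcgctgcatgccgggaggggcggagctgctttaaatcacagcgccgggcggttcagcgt
The Cldn4 stretch holds the element once, 14 to 9 bases before the start, and those of Cldn3 and Cldn1 hold none. RefSeq promoters were matched for 8 of the 9 genes, all but Cldn8, in 11 windows. CACCTG, in either orientation, was found in 4 windows of 4 genes (Cldn4, Cldn7, F11r and Ocln), and in 17.2% of all 32851 windows of this length. AACCNGTT, a grainyhead element, was in 0 of the 11 windows and in 1.79% of all windows. The direct repeat bound by PPAR with RXR, which is AGGTCA written 2 times with any 1 base between, was in 0 of the 11 and in 0.0335% of all. These matches describe letters in these windows, and were not tested as binding sites.

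Cldn3 and Cldn4, claudins of simple epithelium, differed little between the arrays. Cldn4, which tightens the junction and is also a receptor for a bacterial enterotoxin, had signals of 1198.4 on the GW9662 array and 1202.8 on the control array, a log2 ratio (GW9662 over control) of -0.01. Cldn3, a barrier claudin encoded beside Cldn4 on chromosome 5 (134986214 to 134987476, GRCm38.p6), differed little between the arrays at all 4 of its probe sets. Probe set 1460569_x_at had 3748.8 on the GW9662 array and 3155.3 on the control array, 1434651_a_at had 3256.1 and 3072.6, 1451701_x_at had 3222.5 and 3023.5, and 1426332_a_at had 2155.7 and 2162.1 on the same arrays. The 4 log2 ratios ran from -0.0043 to 0.25, with a mean of 0.10 ± 0.11 (SD, n = 4 probe sets), so that the widest difference was 1.19-fold. The names ending in x mark probes that may also bind related transcripts, and without such probe sets the log2 ratio of Cldn3 was 0.08.

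Cldn7, Cldn8 and Cldn10 differed by small amounts as well, with Cldn7 and Cldn10 higher in GW9662 tumors and Cldn8 lower. The differences of Cldn8 and Cldn10 were smaller than that of Cldn3 at its brightest probe set. Cldn7, which in epithelia is found along the lateral membrane as well as at the tight junction, had 3672.2 on the GW9662 array and 2881.6 on the control array, 1.27-fold higher. Cldn10, which is made from alternative first exons as cation- or anion-selective pore forms, had 1727.5 and 1566.0, a log2 ratio of 0.14. Cldn8, a barrier claudin best known from the kidney tubule, had 995.5 on the GW9662 array and 1144.0 on the control array, a log2 ratio of -0.20. Cldn8 thus had a lower signal in GW9662 tumors by an amount smaller than the difference seen for Cldn7 in the opposite direction.

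Cldn1, the claudin needed for the water barrier of the epidermis, had the lowest ratio of the 9 genes. Its probe set 1437932_a_at had 220.7 on the GW9662 array and 300.6 on the control array, 1.36-fold lower, with a log2 ratio of -0.45. The other Cldn1 probe sets were dim. Probe set 1450014_at had 19.9 and 36.0, 1438851_x_at had 3.3 and 7.4, and 1438850_at had 1.2 and 3.5 on the GW9662 and control arrays. No fold was read from these 3 probe sets, since signals below 100 on both arrays have no order here. Probe sets of olfactory receptor genes, which have no known role in the mammary gland, reached 25.8 and had a median of 5.6 on the GW9662 array and 9.1 on the control array. Cldn1 is therefore read by 1 probe set, whose control signal lies just above the minimum of 300 used below.

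The membrane proteins outside the claudin family and the scaffold had slightly higher signals in GW9662 tumors. Ocln, which encodes occludin, had 565.7 on the GW9662 array and 493.0 on the control array, 1.15-fold higher. F11r, which encodes the immunoglobulin-type adhesion protein JAM-A, had 1746.3 and 1642.7, a log2 ratio of 0.09. A further F11r probe set (1436374_x_at) had 8.8 and 18.0, below the highest olfactory receptor signal, and was not read. Tjp1, which encodes the scaffold ZO-1, had 2216.7 on the GW9662 array and 1681.2 on the control array, 1.32-fold higher, the highest ratio of the 9 genes at a log2 ratio of 0.40. Tjp1, Ocln, Cldn4, Cldn7, Cldn8 and Cldn10 each rest on 1 probe set, so that no spread between probe sets can be given for them.

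**Figure D1:**
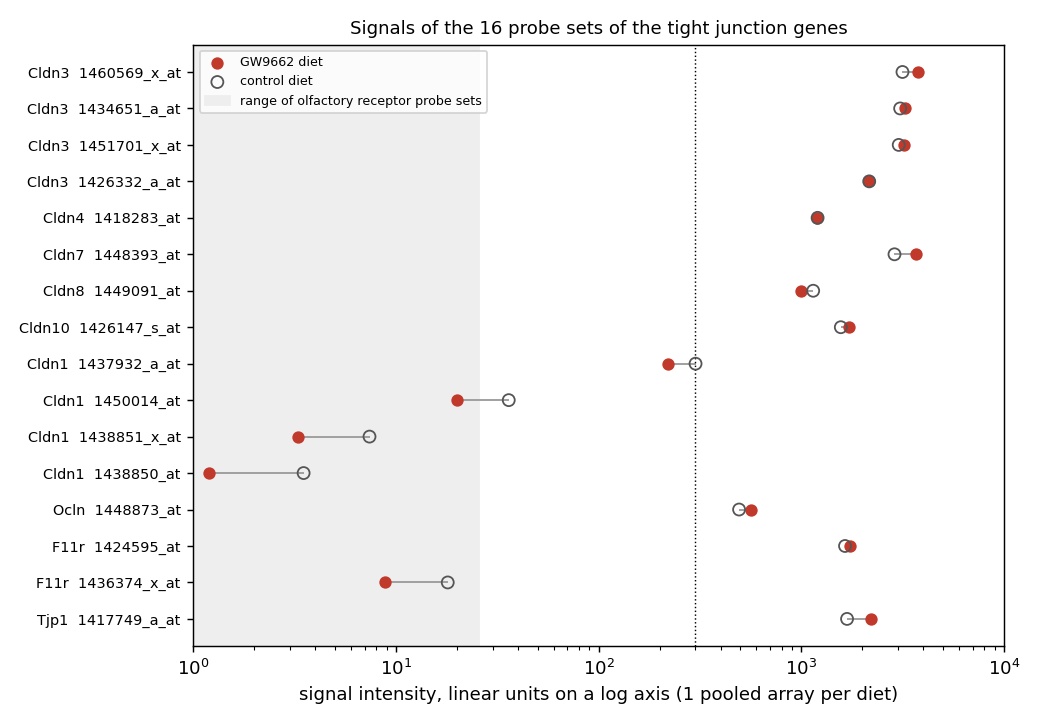
Signal intensity (log axis) of each of the 16 probe sets on the GW9662 diet array (filled) and the control diet array (open), with 1 pooled array per diet; the dotted line marks a signal of 300 and gray the span of olfactory receptor signals, up to 25.8. The 12 probe sets that reach 300 have pairs of points that lie close together, the widest of them Cldn1 (220.7 and 300.6) and Tjp1 (2216.7 and 1681.2), and 4 probe sets of Cldn1 and F11r are dim on both arrays.

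With each gene read at its brightest probe set, the log2 ratios of the 9 genes ran from -0.45 for Cldn1 to 0.40 for Tjp1, with a median of 0.14. Ordered from low to high, the genes were Cldn1, Cldn8, Cldn4, F11r, Cldn10, Ocln, Cldn3, Cldn7 and Tjp1. Within a gene, log2 ratios spread over its probe sets with an SD of 0.36 (2639 genes with several probe sets), a measure that holds no variation between mice. Of the 9 genes, 7 had a log2 ratio within 0.36 of 0, and neighbors in this order differed by less than that. Cldn1 and Tjp1 lay outside it, by a small margin.

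All 9 genes reached a signal of 300 on 1 array or both, as did 6053 genes in all. None of the 9 was at least 3-fold lower or higher, the size used in the methods of the study, and 2.68% of the 6053 genes were at least 3-fold lower and 0.215% at least 3-fold higher. None differed 2-fold, against 5.7% of the 6053 genes, and none differed 1.5-fold, against 16.2%. At such shares a count of 0 among 9 genes is near the background and is no result about these genes. The signal was higher on the GW9662 array for 6 of the 9 genes and for 54.8% of the 6053. For all 6053 genes the median log2 ratio was 0.05, with the quartiles at -0.23 and 0.29. The range between the quartiles held 6 of the 9 genes, with Cldn1 below it and Cldn7 and Tjp1 above it. All 9 lay between the 5th and 95th percentiles, -0.95 and 0.64.

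**Figure D2:**
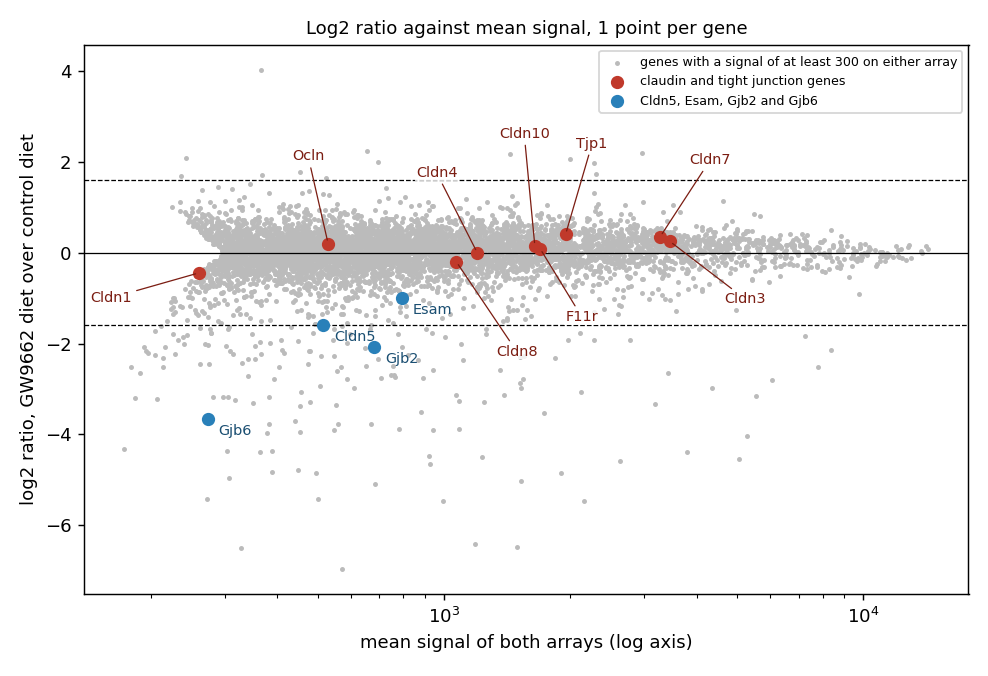
Log2 ratio of GW9662 over control against the mean signal of both arrays (log axis), 1 point for each gene that reached a signal of 300; the dashed lines mark 3-fold differences. The 9 claudin and tight junction genes (red) lie between -0.45 and 0.40 in the dense band around 0, while the endothelial genes Cldn5 and Esam and the connexin genes Gjb2 and Gjb6 (blue) lie at -1.60, -0.99, -2.08 and -3.66.

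The tumors were read by pooled RNA, in which fewer cells of a type and less RNA per cell cannot be told apart, so the 9 genes were set beside general epithelial genes. The keratin genes Krt8 (9664.7 on the GW9662 array and 9496.4 on the control array) and Krt18 (9025.3 and 10018.0) differed little, as did the adhesion gene Epcam (7580.4 and 6756.6), while the E-cadherin gene Cdh1 had 4109.4 and 3158.1. Their median log2 ratio was 0.10. Relative to that median, the log2 ratios were -0.54 for Cldn1, -0.30 for Cldn8, -0.10 for Cldn4, -0.01 for F11r, 0.05 for Cldn10, 0.10 for Ocln, 0.15 for Cldn3, 0.25 for Cldn7 and 0.30 for Tjp1. Cldn1 was lower relative to each of the 4 epithelial genes, by 0.30 (Krt18) to 0.83 (Cdh1) on the log2 scale. Tjp1 was higher relative to each, by 0.02 (Cdh1) to 0.55 (Krt18). Of 14 luminal epithelial markers, 9 had a higher and 5 a lower signal, none differed 2-fold, and their median log2 ratio was 0.13, beside 0.14 for the 9 genes. The signals of the 14 luminal markers summed to 63989.3 on the GW9662 array and 61694.2 on the control array.

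Of 13 other claudins measured, 10 were too dim to read and an endothelial one was lower. Cldn5, the claudin of blood vessel endothelium, had 255.7 on the GW9662 array and 773.8 on the control array, 3.03-fold lower. Cldn6, a claudin of embryonic epithelia, had 305.2 and 277.8, and Cldn23 had 160.5 and 125.6, both with slightly higher signals. The 10 dim claudins had a mean signal below 100. Of these, Cldn15, a pore-forming claudin of the intestine, reached 130.9 on the control array, against 49.1 on the GW9662 array. The log2 ratio of Cldn5, -1.60, lay below the lowest of the 9 genes, and endothelial markers were lower as well. Of 9 endothelial markers with a mean signal of at least 100, Cldn5 among them, each was lower in GW9662 tumors, with a median log2 ratio of -0.66 and summed signals of 3430.0 on the GW9662 array and 5815.1 on the control array. Pecam1, an adhesion protein of endothelium, had 185.3 and 505.4, and Cdh5, the endothelial cadherin, had 531.4 and 831.0. Their part in the Cldn5 difference was not tested.

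Of 32 other tight junction genes with a mean signal of at least 100, 22 had a higher and 10 a lower signal in GW9662 tumors, and none was 2-fold different with a signal of at least 300. Their median log2 ratio was 0.16, close to that of the 9 genes. Of the 44 genes on this list 36 were measured and 4 of these had a mean signal below 100. The partners of the 9 proteins differed in direction. Tjp3, which encodes the scaffold ZO-3, had 371.7 on the GW9662 array and 552.7 on the control array, 1.49-fold lower, in the direction opposite to that of Tjp1. Marveld2, which encodes tricellulin, the relative of occludin at corners where several cells meet, had 440.0 and 331.4, 1.33-fold higher and in the same direction as Ocln. Crb3, a polarity protein of the apical membrane, had the highest ratio of the 32 at its brightest probe set (440.0 and 268.2, 1.64-fold higher), while its other probe sets had 271.5 and 179.9, and 209.2 and 192.7. The atypical protein kinase gene Prkci (2401.6 and 2069.8) was slightly higher, as were Cttn, an actin regulator (6508.7 and 5903.9), Vapa, which binds occludin (4772.5 and 3923.9), and Ybx3, a factor that binds ZO-1 (5449.1 and 5027.5), at their brightest probe sets. Some other probe sets of Cttn, Vapa and Ybx3 had the opposite direction. These had 648.2 and 974.3, and 174.7 and 336.8 for Cttn, 3312.4 and 3513.8 for Vapa, and 2471.3 and 2550.5 for Ybx3. A further Cttn probe set had the same direction as the brightest, with 3241.4 and 3081.1. Gnai2, a G protein subunit, had 3420.1 and 2889.9 at its brightest probe set but 1002.6 and 1365.7 at another. The angiomotin genes were split, with Amot at 352.6 and 257.6 and Amotl2 at 309.0 and 583.7. Jam2, which encodes JAM-B, a relative of JAM-A, had 67.9 on the GW9662 array and 148.6 on the control array, at least 1.49-fold lower when the dim signal is read as 100, and its log2 ratio of -1.13 was the lowest of the 32. Esam, a further relative of JAM-A found in endothelium and platelets, had 531.4 on the GW9662 array and 1055.2 on the control array, a log2 ratio of -0.99, and it is also an endothelial marker.

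Among other junctions, genes of the adherens junction and desmosome were close to the tight junction genes, while some connexins were far lower. The 17 adherens junction and desmosome genes read at a mean signal of at least 100 had a median log2 ratio of 0.13, with 13 higher and 4 lower and none differing 2-fold. Ctnnb1, which encodes β-catenin, had 7446.5 on the GW9662 array and 7608.0 on the control array at its brightest probe set. Its other probe sets had 1418.4 and 2004.5, and 170.7 and 182.0. Ctnna1, which encodes α-catenin, had 6597.5 and 6105.8 at its brightest probe set. Jup, which encodes plakoglobin, had 664.1 and 466.4, and the desmosomal cadherin Dsg2 had 3314.3 and 2408.0 at its brightest probe set. Other Dsg2 probe sets were split, with 2084.9 and 1720.4, 432.0 and 487.5, 149.8 and 191.0, and 127.3 and 97.7. By contrast, Gjb2, which encodes a connexin of epithelia, had 260.6 on the GW9662 array and 1102.5 on the control array, 4.23-fold lower. Gjb6, a close relative of Gjb2, had 40.1 and 506.3, at least 5.06-fold lower when the dim signal is read as 100. Both connexins are known to be abundant in the lactating mammary gland. Gja1, a widely expressed connexin of stroma and myoepithelium, had 4232.1 and 3686.3 at its brightest probe set, with log2 ratios between -0.17 and 0.21 at its 4 brightest, but 221.6 and 81.6 at the next. Gjc1 had 536.5 and 379.7.

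Transcription factors that regulate epithelial junction genes differed little as groups. Of 12 factors known to raise such genes, 8 had a higher and 4 a lower signal, with a median log2 ratio of 0.15. Elf5, a luminal factor of milk secretion, had 2040.0 on the GW9662 array and 4138.4 on the control array, 2.03-fold lower. Tfap2c, an AP-2 factor, was read by 3 probe sets, with 2197.6 and 1204.7, 879.2 and 746.8, and 664.2 and 613.4 on the GW9662 and control arrays. Of 6 factors known to lower junction genes, 2 had a higher and 4 a lower signal, with a median of -0.19. Tcf4 and Tcf3, the brightest of the 6, had 1726.0 and 1898.3, and 913.5 and 809.0, at their brightest probe sets. Another Tcf4 probe set had 1487.1 and 1530.2. Further ones were lower by more, with 600.1 and 916.8, 554.1 and 886.7, and 514.2 and 951.4. With the median over probe sets of mean signal at least 100, the median of the lowering factors was -0.31. Another Tcf3 probe set had the opposite direction, with 236.7 and 410.2. Snai2, which encodes the repressor Slug, had 299.0 and 448.8, and Twist1 had 278.2 and 346.6. Snai1 (27.9 and 27.5) was below 100 on both arrays, so that its level cannot be compared.

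The 9 genes differed far less between the diets than genes of fat and muscle did. All 8 fat cell markers were 3-fold lower or more in GW9662 tumors, with a median log2 ratio of -4.51 and summed signals of 3930.4 on the GW9662 array and 33825.2 on the control array. Of 10 skeletal muscle markers 9 passed the same size and signal, with a median of -3.27 and sums of 1100.1 and 11294.0. Basal or squamous markers had a median of 0.09 over 10 genes, fibroblast markers -0.13 over 9 and leukocyte markers -0.07 over 6. Of the 9 fibroblast markers, 7 had a lower and 2 a higher signal, with log2 ratios from -1.26 to 0.725. The lowest was Dcn, with 2924.9 on the GW9662 array and 7005.2 on the control array, and Lum had 2356.3 and 4106.6. Within the basal list, Krt14, a keratin of basal and myoepithelial cells, had 619.5 on the GW9662 array and 1022.0 on the control array, while Lgals7, a galectin of stratified epithelium, had 7223.9 and 4119.0. The part of the fat and muscle signal in the ratios of the 9 genes was not tested.

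**Figure D3:**
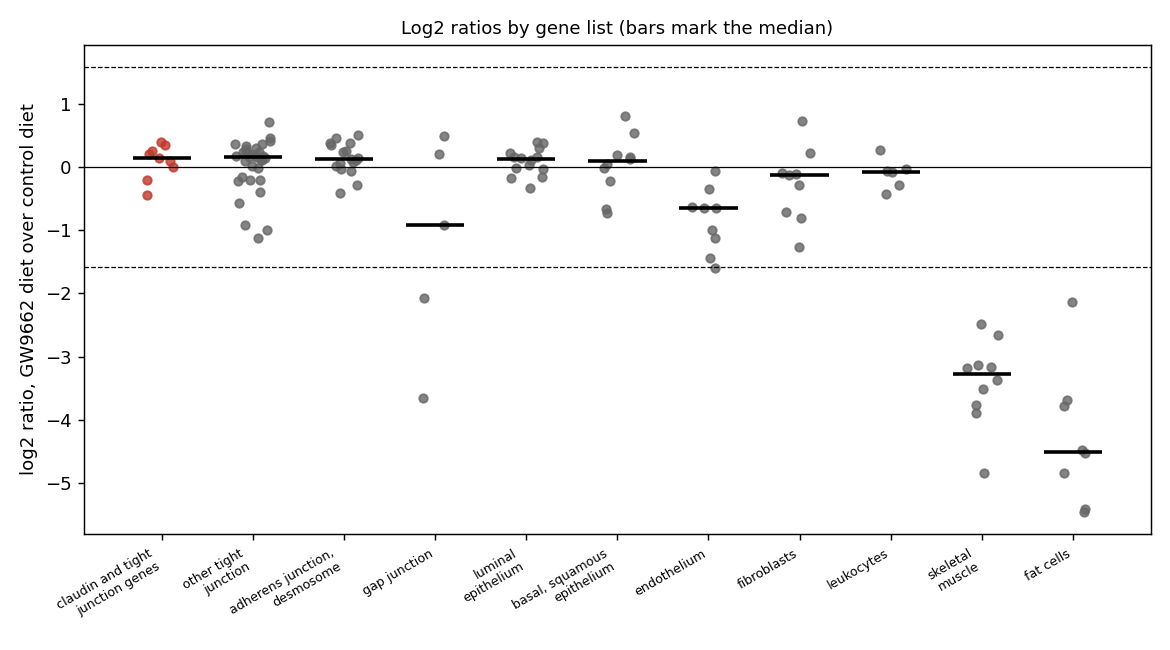
Log2 ratio of GW9662 over control for each gene with a mean signal of at least 100, by gene list; bars mark the median and dashed lines 3-fold differences. The claudin and tight junction genes (red, median 0.14) sit with the other tight junction (0.16), adherens junction and desmosome (0.13) and luminal epithelial genes (0.13). The medians of the endothelial (-0.66), muscle (-3.27) and fat cell lists (-4.51) are lower. The lists share some genes, with Epcam on the other tight junction and luminal lists and Cdh1 on the adherens junction and luminal lists.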

How the data were processed

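RNA pooled from 5 mice per diet was labelled with biotin and hybridized to 1 Affymetrix mouse array per diet. The table that the authors deposited holds a linear signal intensity, made with Affymetrix software, for each of 22690 probe sets, from 0 to 14841.4. How probes were summarized and arrays scaled is not given in the sources used here. A 2% trimmed mean of 500.2 was found for each array, and no scaling was added. A signal of 0 was set to 0.1 before taking log2. The number of arrays, 2, limits the precision.

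Probe sets were named from the platform annotation, with symbols updated by gene identifier in RefSeq (GRCm38.p6). A single gene was named for 20380 probe sets, several for 691 and none here for 1555, and 64 were controls. A gene was read at the probe set whose signal averaged highest. Counts by fold needed a signal of 300 on 1 array or both, and signals below 100 were read as 100 for bounds. List members needed a mean signal of 100. Named genes were all 9 members, the 6 brightest and 6 largest ratios of the other tight junction genes, and up to 3 and 2 of each other list, with ratios ranked among genes that reached a signal of 300. Krt8, Krt18, Epcam and Cdh1 were the epithelial genes for comparison, and all are also on the luminal list. Cldn15, Jam2, Snai1 and dimmer probe sets were named in addition, after their values were seen. The members and all lists were chosen with earlier results of these data known. Upstream windows of 250 bases came from RefSeq promoters. The counting rule was tested on simulated data. Other scalings, floors, folds, signal minimums and probe set choices were tried. Computations ran in Python 3.11.15 with pandas 2.3.3 and numpy 2.4.6, and plots were drawn with matplotlib 3.10.9.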

Additional observations from a re-analysis of the deposited data

How the results depend on the processing

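None of the 9 genes reached 1.5-fold at its main probe set, where all signals were above 100. The floor, signal minimums and other folds run therefore could not change the count of 0. At least 3-fold, the count was also 0 under each scaling, added constant and probe set choice run. The median log2 ratio of the 9 genes moved by less than 0.36 in each setting where it was computed. Cldn1 was at -1.01 and F11r at -0.47 with the median over all probe sets, and the sign of F11r changed there. The Cldn1 value is the mean of 2 dim probe sets, and that of F11r averages a dim probe set with a readable one. In the settings run, Tjp1 stayed between 0.38 and 0.41, Cldn7 between 0.29 and 0.36, and Cldn4 between -0.02 and 0.01. Leaving out probe sets that may read related transcripts, a setting chosen after seeing the data, gave no value for Cldn10, whose only probe set is of that kind. Cldn5 no longer counted as 3-fold lower after quantile normalization or with 16 added to every signal, so that the counts for other claudins and for endothelium were 0. The fat cell median was -3.79 with signals below 100 set to 100. Over all genes, 248 were lower and 20 higher with a signal minimum of 100, 283 and 62 at 2-fold, and 593 and 388 at 1.5-fold. Endothelial genes past the fold numbered 2 at 2.5-fold, 2 at 2-fold and 5 at 1.5-fold. At 2-fold 1 fibroblast gene and 1 raising factor counted. At 1.5-fold these were 4 and 2, with 3 other tight junction genes, 3 basal or squamous genes and 1 lowering factor. The other values moved by less than 0.36 or 1.5 times. No paired analysis was possible because each diet has 1 array. Signals below 100 limit what can be read of most other claudins.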
